A study of Homo sapiens with 33 samples.

Results

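Tiles hTR_308 to hTR_420 are a run of 113 designed oligonucleotides of a pool named for hTR, the human telomerase RNA, which holds tiles hTR_1 to hTR_614. Each tile was made with 25 barcodes, so the run comprises 2825 of the 15350 tile-barcode oligos of its pool and of the 81343 tile-barcode oligos of 5 pools in the series, which together hold 3358 tiles. The borders of the run were set in an earlier look at these data by least squares on the immunoprecipitate-to-Input ratios of replicate 1, with at least 20 tiles in each of 4 segments along the tile numbers. The run was thus selected on the ratios of replicate 1, which are given below as a description with no test. Replicates 2 and 3 took no part in that choice, and the tests of these tiles were taken from them. Fits on all 6 libraries, replicate 1 included, are given as a description of the run.

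The study transfected pools of oligonucleotides into human cells and asked which of their transcripts were recovered with a chosen protein. For the hTR pool the cells were HEK293T, a human embryonic kidney line, in which FLAG-hTERT was overexpressed, and 3 FLAG immunoprecipitate libraries were set against 3 Input libraries, numbered 1 to 3 in each group. All 6 libraries came from cells harvested 48 hours after transfection and fixed with 0.1% formaldehyde for 10 minutes. Every group carried FLAG-hTERT, and no precipitation with an unrelated antibody or from cells without the tag is among the groups compared here, so recovery through hTERT and recovery through the beads or the antibody cannot be told apart.

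Telomerase adds telomere repeats to chromosome ends. Its RNA subunit, hTR, carries the template and serves as a scaffold, and its catalytic subunit, hTERT, is the reverse transcriptase that copies the template. hTERT is known to contact hTR in the template and pseudoknot domain and in the CR4/CR5 region, whereas the H/ACA domain at the other end binds the dyskerin complex and guides maturation and localisation. Tile names give the source RNA and a number and no position, so no tile below is assigned to one of these regions. The tile sequences were not used here.

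The immunoprecipitate libraries held 11780535, 8456721 and 7108444 reads in replicates 1, 2 and 3, and the Input libraries 8209243, 8239730 and 8339343. Tiles hTR_308 to hTR_420 took 23.7%, 29.8% and 28.4% of the immunoprecipitate reads, against 15.9%, 25.9% and 25.1% of the Input reads. Each immunoprecipitate library gave these tiles a larger share than the Input of the same number, but the groups overlapped, because replicate 1 of the immunoprecipitate lay below replicates 2 and 3 of Input. Levels below are counts scaled to a common library size (CPM) after trimmed mean of M values (TMM) normalisation, and a log2 ratio is the CPM of an immunoprecipitate library over that of the Input library with the same number.

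Replicate 1 stood apart from replicates 2 and 3, in Input more than in the immunoprecipitate. Over the 113 tiles, log2 CPM of the immunoprecipitate had a Pearson correlation of 0.875 between replicates 1 and 2, 0.913 between 1 and 3 and 0.966 between 2 and 3. In Input the same correlations were 0.705, 0.706 and 0.992. The median tile of the run had 1648, 2626 and 2353 CPM in the immunoprecipitate, against 865, 2181 and 2224 CPM in Input. Log2 ratios correlated at 0.673 between replicates 1 and 2, 0.645 between 1 and 3 and 0.963 between 2 and 3. These correlations are across tiles of shared libraries and describe the libraries, not independent replicates. Results are given with and without replicate 1 for this reason.

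Tiles hTR_308 to hTR_420 were recovered unevenly: within the run, tiles above and tiles below their Input stood side by side. Their median log2 ratio was 1.04 in replicate 1, 0.36 in replicate 2 and 0.14 in replicate 3, while the median of the whole pool was 0.49, -0.09 and 0.05. The run thus lay above the pool by 0.55, 0.45 and 0.08 log2 units, a difference that no choice of scaling changes. The ratios spanned -0.57 to 2.90 in replicate 1, -1.50 to 1.61 in replicate 2 and -1.32 to 1.38 in replicate 3. They were positive in 104, 74 and 66 of the 113 tiles. Of the 113 tiles, 66 had a positive ratio in all 3 replicates and 9 had a negative ratio in all 3. Set against the pool median of the same replicate, which does not depend on the scaling, 60 tiles lay above in all 3 replicates. By the same measure 19 lay below in all 3, and 34 were mixed. Over the pool these counts were 219, 228 and 167. Replicate 1, on which the run was selected, is part of all these counts, so they are a description.

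In replicates 2 and 3, 57 of the 113 tiles were higher in the immunoprecipitate than in Input and 24 were lower, with 32 not called, by the quasi-likelihood test of edgeR fitted on all tiles of the pool with Benjamini-Hochberg adjustment at 0.05. That is 50.4% of the run called higher and 21.2% called lower. Over the whole pool the same test called 32.9% of tiles higher and 32.7% lower. The median log2 fold change of the run was 0.35, against 0.14 over the pool, and its range was -1.24 to 1.59. Of the called tiles, 22 were higher by at least 2-fold and 4 were lower by at least 2-fold. Over the whole pool, 88 called tiles were higher and 62 lower by at least 2-fold. Both libraries of the immunoprecipitate lay above both of Input in 61 tiles and below both in 38, against 38.3% and 39.4% of all tiles in the pool. DESeq2 on the same 4 libraries called 51 tiles of the run higher and 28 lower, against 29.6% and 34.5% of the pool. The count of lower tiles by edgeR was 10 without replicate 2 of Input and 10 without replicate 3 of Input, where the count of higher tiles was 39 and 40. Over the whole pool those fits called 142 tiles higher and 163 lower without replicate 2 of Input, and 138 higher and 140 lower without replicate 3 of Input.

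The neighbouring segments were one-sided in the same fit. Tiles hTR_194 to hTR_307 had 111 of 114 tiles higher and 0 lower, with a median log2 fold change of 1.03. Tiles hTR_421 to hTR_614 had 1 tile higher, 176 lower and 17 not called, with a median of -0.87. The interquartile range of the log2 fold changes was 1.14 in tiles hTR_308 to hTR_420, 0.40 in tiles hTR_194 to hTR_307 and 0.33 in tiles hTR_421 to hTR_614. The differences between segments were not tested, since the segments were cut from the ratios of replicate 1.

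At the lower border the ratios of single tiles alternated on both sides. Just inside it, tiles hTR_308 to hTR_312 had log2 ratios of 0.35, 0.79, 1.79, -0.57 and 0.68 in replicate 1, against 1.27, 1.76, 1.07, 1.29 and 1.45 in tiles hTR_303 to hTR_307 just outside it. In replicate 2 the inner 5 had -0.75, -0.53, 0.88, -1.44 and -0.84, and the outer 5 had 0.29, 0.98, 0.32, -0.11 and 1.09. Replicate 3 had -0.33, -0.38, 0.63, -1.27 and -0.66 inside, and 0.03, 0.91, -0.16, -0.19 and 0.85 outside. Tile hTR_310 thus had ratios like those of tiles hTR_304 and hTR_307, while the tiles on either side of it lay below them.

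At the upper border the drop came in each replicate. Inside it, tiles hTR_416 to hTR_420 had log2 ratios of 1.57, 2.90, 0.92, -0.01 and 1.08 in replicate 1, against -0.36, -0.32, -0.05, -0.37 and -0.61 in tiles hTR_421 to hTR_425 outside it. In replicate 2 the inner 5 had 0.94, -0.03, -0.32, -0.65 and 0.47, and the outer 5 had -0.96, -1.21, -0.53, -0.61 and -1.11. In replicate 3 the inner 5 had 0.66, -0.08, -0.31, -0.55 and 0.12, and the outer 5 had -0.80, -0.69, -0.32, -0.60 and -0.69. All 5 outer tiles were negative in all 3 replicates, and tiles hTR_416 and hTR_420 inside were positive in all 3.

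The tile with the highest fold change of the run was hTR_328. It had 1636, 4034 and 3054 CPM in the immunoprecipitate, against 830, 1371 and 1177 CPM in Input. All 3 immunoprecipitate libraries lay above all 3 Input libraries. In replicates 2 and 3 its log2 fold change was 1.59 ± 0.18 (SE, 2 libraries a group, edgeR adjusted p = 9.9e-16), a 3.02-fold difference. A single barcode held 46.0% of the reads of hTR_328, the largest such share in the run, and without that barcode the log2 fold change was 1.50. Of its barcodes with at least 30 reads over both libraries of a replicate, 15 of 15, 12 of 14 and 13 of 14 were higher in the immunoprecipitate in replicates 1, 2 and 3.

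Next came hTR_373, with 1485, 2457 and 1825 CPM in the immunoprecipitate, against 532, 807 and 923 CPM in Input. Its groups did not overlap, and the log2 fold change in replicates 2 and 3 was 1.42 ± 0.19 (SE, edgeR adjusted p = 2.4e-12). Its barcodes moved together, with 14 of 14, 14 of 14 and 13 of 14 higher in the immunoprecipitate in the 3 replicates. Tile hTR_378 had 1386, 1801 and 1787 CPM in the immunoprecipitate, against 567, 804 and 786 CPM in Input, again without overlap, and a log2 fold change of 1.29. Tile hTR_343 had 1316, 2626 and 2260 CPM in the immunoprecipitate, against 354, 1098 and 1190 CPM in Input, and a log2 fold change of 1.21. It was also free of overlap, with its lowest library in Input replicate 1.

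The other 6 of the 10 highest tiles were hTR_367 at a log2 fold change of 1.28, hTR_355 at 1.24, hTR_361 at 1.17, hTR_410 and hTR_379 at 1.16 each, and hTR_385 at 1.15. Tile hTR_385 carried many more reads than the rest of these, with 2825, 6735 and 5155 CPM in the immunoprecipitate, against 1167, 3015 and 2812 CPM in Input. Its groups overlapped over 6 libraries, since replicate 1 of the immunoprecipitate lay below replicate 2 of Input, though each immunoprecipitate library lay above the Input of its own number. Tile hTR_355 varied little in either group, at 1239, 1143 and 1318 CPM in the immunoprecipitate, against 547, 543 and 581 CPM in Input.

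The tile with the lowest fold change was hTR_311, with 1124, 1418 and 1576 CPM in the immunoprecipitate, against 1674, 3858 and 3803 CPM in Input. The groups did not overlap, and every immunoprecipitate library lay below every Input library. In replicates 2 and 3 the log2 fold change was -1.24 ± 0.18 (SE, edgeR adjusted p = 7.9e-11), which left it at 0.423 of its Input level. Of its 13 barcodes with enough reads, 5 were higher in the immunoprecipitate in replicate 1, 0 in replicate 2 and 0 in replicate 3.

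The next 4 lowest tiles were depleted in replicates 2 and 3 and close to their Input in replicate 1, except hTR_324. Tile hTR_329 had 1933, 2265 and 2426 CPM in the immunoprecipitate, against 2097, 5790 and 6074 CPM in Input, and a log2 fold change of -1.22 ± 0.15 in replicates 2 and 3. Tile hTR_323 had 1701, 2206 and 2620 CPM in the immunoprecipitate, against 1934, 6231 and 5706 CPM in Input, and a log2 fold change of -1.19. In both tiles the immunoprecipitate level varied little and replicate 1 of Input was low. Tile hTR_407 had 2133, 1934 and 2353 CPM in the immunoprecipitate, against 2435, 5319 and 5265 CPM in Input, and a log2 fold change of -1.19 ± 0.15. Tile hTR_324 had 2168, 3065 and 3315 CPM in the immunoprecipitate, against 1602, 7110 and 6446 CPM in Input, and a log2 fold change of -0.97 ± 0.14. In replicate 1 this last tile was above its Input, opposite to replicates 2 and 3. Its log2 ratio there was 0.44, below the pool median of 0.49 in that replicate. The replicate 1 ratios of hTR_329, hTR_323 and hTR_407 were -0.12, -0.19 and -0.19, also below that median.

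The 57 tiles called higher in replicates 2 and 3 had log2 fold changes of 0.31 to 1.59, with a median of 0.92. In replicate 1, on which the run was selected, the ratio was positive in 104 of all 113 tiles and above the pool median in 92, and among these 57 it was positive in 57 and above the pool median in 56. Their median levels were 1613, 2781 and 2370 CPM in the immunoprecipitate, against 682, 1596 and 1600 CPM in Input. In replicate 2, 830 of their 956 barcodes with enough reads were higher in the immunoprecipitate, and in replicate 3 it was 796 of 955. The calls were made on these same reads, so the barcode counts describe the called tiles and are no separate support.

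The 24 tiles called lower had log2 fold changes of -1.24 to -0.32, with a median of -0.61. In replicate 1 the ratio was negative in 8 of the 24 and below the pool median in 15. Their median levels were 1743, 2111 and 2060 CPM in the immunoprecipitate, against 1193, 3974 and 3801 CPM in Input. Beside the tiles called higher, these tiles thus had the higher median in all 3 Input libraries, and in the immunoprecipitate the higher median in replicate 1 and the lower one in replicates 2 and 3. In replicate 2, 44 of 396 barcodes were higher in the immunoprecipitate, in replicate 3 51 of 395, and in replicate 1 the share was 65.4%. The levels and barcodes of replicates 2 and 3 are those that made the calls, so they are no separate support.

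Input level and recovery ran in opposite directions across the run. Over the 113 tiles, log2 CPM in replicate 2 of Input had a Pearson correlation of -0.64 with the log2 ratio of replicate 3 (Spearman -0.62), and replicate 3 of Input one of -0.62 with the ratio of replicate 2. Replicate 1 of Input, the most distinct library, correlated at -0.48 with the ratio of replicate 2. Each pair takes its level and its ratio from different libraries, but replicates 2 and 3 of Input share nearly all of their variation between tiles, so the 2 quantities are not independent. The corresponding value for replicate 2 of Input and the ratio of replicate 3 was -0.54 in tiles hTR_194 to hTR_307, -0.28 in tiles hTR_421 to hTR_614 and -0.07 in tiles hTR_1 to hTR_193. Whether Input abundance plays a part in the ratios was not tested.

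The 3 tiles with the most Input reads were hTR_336 with 153202 reads over the Input libraries, hTR_413 with 143720 and hTR_324 with 114495. Tile hTR_336 had 2953, 4114 and 3917 CPM in the immunoprecipitate, against 2861, 8845 and 8107 CPM in Input, and a log2 fold change of -0.96 in replicates 2 and 3. Tile hTR_413 had 5555, 8398 and 7829 CPM in the immunoprecipitate, against 2821, 7917 and 7758 CPM in Input, and was not called, with a log2 fold change of 0.17 (edgeR adjusted p = 0.206). The 3 with the fewest Input reads were hTR_410 with 9909, hTR_358 with 12661 and hTR_408 with 13743, and they had log2 fold changes of 1.16, 1.12 and 1.03.

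Recovery within the run recurred at an interval of 6 tile numbers. Across the 107 pairs of tiles 6 numbers apart, the log2 ratios had a Pearson correlation of 0.40, 0.59 and 0.57 in replicates 1, 2 and 3. Adjacent tiles, 112 pairs, had 0.09, 0.15 and 0.13. The median absolute difference in log2 ratio was 0.369, 0.410 and 0.317 for tiles 6 apart, and 0.555, 0.532 and 0.552 for adjacent tiles. A tile was thus closer in recovery to the tile 6 numbers away than to its direct neighbour. At an interval of 3 the correlations were 0.18, 0.23 and 0.26. At intervals of 12 and 18, added after the interval of 6 had been seen, they were 0.27, 0.46 and 0.43, and 0.06, 0.28 and 0.25.

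The interval of 6 was not even along the run. In tiles hTR_308 to hTR_345 the correlations at 6 were 0.57, 0.77 and 0.75 in replicates 1, 2 and 3, in tiles hTR_346 to hTR_382 they were 0.52, 0.71 and 0.78, and in tiles hTR_383 to hTR_420 they were 0.12, 0.22 and 0.12. Tiles hTR_194 to hTR_307 had 0.13, 0.50 and 0.41, with similar values at an interval of 3 (0.08, 0.54 and 0.46). Tiles hTR_421 to hTR_614 had 0.04, -0.07 and 0.00, and tiles hTR_1 to hTR_193 had 0.07, 0.03 and 0.08. The levels themselves differed between the groups in this. In the immunoprecipitate libraries 6 was not the interval of highest correlation: log2 CPM correlated at 0.25, 0.38 and 0.37 at an interval of 6, at 0.31, 0.45 and 0.49 at an interval of 2, and at 0.25, 0.38 and 0.31 between adjacent tiles. In the Input libraries the correlations were 0.19, 0.52 and 0.51 at 6, 0.04, 0.40 and 0.34 at 2, and 0.00, 0.28 and 0.21 between adjacent tiles, with 6 the highest of the intervals 1 to 10 in each library. In tiles hTR_308 to hTR_345, log2 CPM at an interval of 6 correlated at -0.11, 0.05 and -0.18 in the immunoprecipitate libraries, against 0.27, 0.50 and 0.50 in the Input libraries. All these values describe tiles that share libraries, and tiles near each other in number may overlap in sequence, which the names do not state.

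Sorting the 113 tiles by the remainder of their number on division by 6, a grouping chosen after the values had been seen and so given with no test, shows where in the numbering the ratios were high and low. Of the 19 tiles with remainder 4, 17 were called higher and 0 lower in replicates 2 and 3, with a median log2 fold change of 0.88. Of the 18 with remainder 1, 14 were called higher and 1 lower, with a median of 1.07. Remainder 5 lay at the other end, with 6 of 19 called higher, 8 called lower and a median of -0.31. Remainders 0, 2 and 3 had medians of 0.17, 0.06 and 0.06, with 9, 7 and 4 tiles called higher and 7, 4 and 4 called lower. Over the whole pool, remainders 4, 1 and 5 had 43 of 102, 40 of 103 and 27 of 102 called higher. In the same order, 31, 30 and 38 were called lower. Remainders 0, 2 and 3 had 34 of 102, 28 of 103 and 30 of 102 called higher over the pool, and 35, 35 and 32 called lower. The order of the remainders changed along the run. In tiles hTR_346 to hTR_382 remainders 2 and 3 had the lowest medians, at -0.35 and -0.28, while remainders 5 and 0 had 0.55 and 0.70.

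The series with remainder 4 stayed above its Input nearly throughout. Its tiles hTR_310, hTR_316, hTR_322, hTR_328, hTR_334 and hTR_340 had log2 fold changes of 0.88, 1.08, 0.63, 1.59, 0.74 and 1.00 in replicates 2 and 3. Directly after each of these comes a tile with remainder 5, and there hTR_311, hTR_317, hTR_323, hTR_329, hTR_335 and hTR_341 had -1.24, -0.88, -1.19, -1.22, -0.34 and -0.31, of which the last 2 were not called (edgeR adjusted p = 0.0627 and 0.137). Tiles that follow one another in number thus differed by up to 2.82 log2 units, as hTR_328 and hTR_329 did. Tile hTR_316 shows this in its levels, at 1099, 2946 and 2521 CPM in the immunoprecipitate, against 367, 1420 and 1390 CPM in Input, beside hTR_317, at 2029, 3083 and 2750 CPM in the immunoprecipitate, against 2168, 5987 and 5627 CPM in Input.

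The series with remainders 5 and 0 were depleted at the start of the run and mixed after it. With remainder 5, hTR_347 and hTR_353 had log2 fold changes of 0.20 and -0.18. The tiles from hTR_359 to hTR_383 had 0.50, 0.86, 0.59, 0.79 and 0.34. Then hTR_389 and hTR_395 had -0.71 and -0.51, hTR_401 had 0.60 and hTR_407 had -1.19. At the end hTR_413 and hTR_419 had 0.17 and -0.48. With remainder 0, hTR_312, hTR_318, hTR_324, hTR_330 and hTR_336 had -0.63, -0.61, -0.97, -0.96 and -0.96. Next, hTR_342, hTR_348, hTR_354 and hTR_360 had 0.76, 0.17, -0.54 and 0.60. Tiles hTR_366, hTR_372, hTR_378 and hTR_384 had 0.80, 0.93, 1.29 and 1.01. After them hTR_390, hTR_396 and hTR_402 had -0.13, -0.32 and 0.12. Last, hTR_408, hTR_414 and hTR_420 had 1.03, 0.91 and 0.42. The 4 largest differences between a tile with remainder 4 and the next tile were those at hTR_310, hTR_316, hTR_322 and hTR_328, at the start of the run.

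Both series of steady recovery have a remainder of 1 on division by 3, and joining them gives 37 tiles, of which 31 were called higher and 1, hTR_391, was called lower. Of the other 76 tiles, 26 were called higher and 23 lower. Over the whole pool, remainders 1, 0 and 2 on division by 3 had 83 of 205, 64 of 204 and 55 of 205 called higher. In the same order, 61, 67 and 73 were called lower. In tiles hTR_194 to hTR_307 remainder 1 also had the highest median log2 fold change, at 1.10 against 0.84 and 1.02. The 37 tiles had median log2 ratios of 1.18, 0.88 and 0.75 in replicates 1, 2 and 3, and the other 76 had 0.92, 0.05 and -0.14. In the immunoprecipitate the median levels of the 37 were 1641, 2946 and 2404 CPM, close to the 1657, 2591 and 2339 CPM of the other 76. In Input the medians were 754, 1646 and 1600 CPM for the 37 and 984, 2508 and 2521 CPM for the other 76. The 2 sets thus differed more in Input than in the immunoprecipitate. In tiles hTR_194 to hTR_307 remainder 1 likewise had the lowest Input medians, at 773, 1728 and 1725 CPM. There, remainder 0 had 953, 2523 and 2505 CPM and remainder 2 had 891, 2194 and 2143 CPM.

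Stretches where neighbours moved the same way lay in the middle and the end of the run. The longest unbroken runs of tiles called higher were 5 tiles long, hTR_376 to hTR_380 and hTR_408 to hTR_412, and no run of tiles called lower was longer than 2. Among windows of 5 consecutive numbers, leaving out any that overlapped a higher one already taken, hTR_408 to hTR_412 had the highest mean log2 fold change in replicates 2 and 3, at 1.02, followed by hTR_376 to hTR_380 at 0.97 and hTR_370 to hTR_374 at 0.80. The mean log2 ratios of hTR_408 to hTR_412 were 1.27, 0.96 and 0.84 in replicates 1, 2 and 3. The lowest windows, taken the same way, were hTR_320 to hTR_324 at -0.38 and hTR_308 to hTR_312 at -0.35, each with 1 tile called higher and 3 called lower. In replicate 1 the means of these 2 windows were 0.62 and 0.60, the opposite sign to replicates 2 and 3. The pool median in replicate 1 was itself 0.49 on this scaling. In tiles hTR_308 to hTR_345, 16 of 38 were called higher (42.1%) and 12 lower (31.6%). In tiles hTR_346 to hTR_382 it was 20 and 6 of 37 (54.1% and 16.2%). In tiles hTR_383 to hTR_420 it was 21 and 6 of 38 (55.3% and 15.8%). Over the whole pool the same fit called 32.9% higher and 32.7% lower, so the share called lower in tiles hTR_308 to hTR_345 was near that of the pool.

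Over all 6 libraries without regard to the replicate number, 0 of the 113 tiles passed the edgeR test, as did 0% of the pool, while 41 of the 113 tiles, and 252 over the whole pool, had an unadjusted p under 0.05. DESeq2 on the same 6 libraries called 27 tiles of the run higher and 1 lower, against 15.0% and 8.47% of the pool. With the replicate number as a block, edgeR called 52 tiles higher and 8 lower, against 28.8% and 27.0% of the pool. These counts describe the run only, since replicate 1 is among the libraries. The 8 lower tiles were hTR_311, hTR_317, hTR_323, hTR_329, hTR_330, hTR_336, hTR_356 and hTR_407, all of which were also called lower in replicates 2 and 3. Of the 57 tiles called higher in replicates 2 and 3, 51 were among the 52. Both fits use the libraries of replicates 2 and 3, so the shared calls, higher and lower, are no separate support.

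The 5 tiles with the smallest p over 6 libraries were hTR_373, hTR_378, hTR_355, hTR_367 and hTR_379. Their log2 fold changes over 6 libraries were 1.35, 1.21, 1.15, 1.26 and 1.13, given as a description, since replicate 1 is among the libraries and the tiles were picked by their p. The immunoprecipitate libraries lay above all Input libraries in 29 tiles of the run and below all of them in 4, hTR_311, hTR_356, hTR_363 and hTR_407, against 16.6% and 25.2% of the pool.

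Replicate 1 exceeded the other replicates most in hTR_417, whose log2 ratio was 2.90 in replicate 1, -0.03 in replicate 2 and -0.08 in replicate 3. It had 1208, 3792 and 3646 CPM in the immunoprecipitate, against 162, 3878 and 3845 CPM in Input. Replicates 2 and 3 of both groups lay together near the same level, and replicate 1 of Input was far below all other libraries. The barcodes followed, with 21 of 21 higher in the immunoprecipitate in replicate 1, 12 of 21 in replicate 2 and 8 of 21 in replicate 3.

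Tiles hTR_390 and hTR_374 showed the same form. Tile hTR_390 had 2976, 6137 and 5666 CPM in the immunoprecipitate, against 708, 7116 and 6903 CPM in Input. Tile hTR_374 had 1735, 3278 and 3224 CPM in the immunoprecipitate, against 330, 2672 and 2865 CPM in Input. In each, replicate 1 was the lowest library of its group, and by a larger factor in Input. The 3 tiles whose ratio in replicate 1 exceeded the mean of replicates 2 and 3 the least were hTR_328, hTR_409 and hTR_364, with differences of -0.49, -0.21 and -0.19 log2 units.

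The barcodes give a view within tiles, though barcodes of a tile share its sequence and its library and are no replicates. Of the 2825 tile-barcode oligos, 674 (23.9%) had no read in any of the 6 libraries, and 13 to 25 barcodes per tile were detected, with a median of 19. The share of barcodes with at least 30 reads that were higher in the immunoprecipitate was 85.4% in replicate 1 (1677 of 1963), 61.0% in replicate 2 (1161 of 1903) and 56.2% in replicate 3 (1070 of 1903). All barcodes were higher in 29, 11 and 7 tiles in replicates 1, 2 and 3, and none was higher in 0, 5 and 8 tiles. The same shares were not counted over the barcodes of the whole pool. On this scaling the median log2 ratio of all tiles of the pool was 0.49, -0.09 and 0.05 in replicates 1, 2 and 3. A high share in replicate 1 is thus not particular to the run, which was also selected on that replicate. With the barcodes of each tile divided into odd and even ones, a division added after the data were seen, the log2 ratios of the 2 sets correlated over the 113 tiles at 0.788, 0.920 and 0.919.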

How the data were processed

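The authors deposited raw read counts per tile, barcode and library of the hTR pool, per the file headers and labels; the values were whole numbers with differing totals, and 0 columns were left unmatched. The program that assigned the reads is not given in the sources used here. No molecular identifiers are named, so PCR reads are not independent molecules. Counts of the other 4 pools, tile sequences and positions were not used here.

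The 25 barcodes of a tile were added up. All tiles passed filterByExpr, were scaled with TMM and tested with the robust quasi-likelihood F test of edgeR 4.0.16 (limma 3.58.1, R 4.3.3), adjusted by Benjamini-Hochberg over all tiles of the pool at a threshold of 0.05. The fit on replicates 2 and 3 has 2 residual degrees of freedom among libraries and shares its spread over tiles, and its own scaling adds 0.12 to log2 values against the scaling on 6 libraries used for CPM and ratios. Each SE was taken as the size of the log2 fold change over the root of its F statistic. Ratios used a prior count of 2, and barcodes needed at least 30 reads over both libraries of a replicate. Descriptions used Python 3.11.15, pandas 2.3.3 and NumPy 2.4.6. The procedure was tested on simulated data, drawn separately for each library around common Input means. These data held no shift of replicate 1, so they cannot show how the fits on 6 libraries handle it.

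Samples were grouped by their titles and labels. Whether the replicates are separate cultures is not in the labels, so a p-value reflects how far these libraries spread, which may be technical. By a chi-square test of the tile counts, no library was a copy of another in its group. Same-numbered libraries deviated together from their group means over all tiles (correlations of 0.90, 0.78 and 0.69 for replicates 1, 2 and 3). Crossed numbers gave similar values within replicates 2 and 3. They were 0.75 for Input 3 with immunoprecipitate 2 and 0.66 for Input 2 with immunoprecipitate 3. The data thus paired the libraries of replicate 1 only, and the pairing within replicates 2 and 3 was taken from the numbers.

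Named tiles were the 10 highest and 5 lowest in replicates 2 and 3, the 5 smallest p over 6 libraries, the 3 with most and 3 with fewest Input reads, the 3 with the largest and 3 with the smallest excess of replicate 1, the border tiles, and the 3 highest and 2 lowest windows. Series by remainder, hTR_391, and the tiles in short lists were named after their values were seen. The members and lists were chosen with earlier results of these data known. Alternatives were scaling by RLE or by library size only, the filter dropped or set at a mean count of 50, DESeq2 1.42.0, the replicate block, a minimum log2 fold change of 1, libraries or replicates left out, each tile without its top barcode, and each barcode as a feature.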

Additional observations from a re-analysis of the deposited data

How the results depend on the processing

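In replicates 2 and 3 the median log2 fold change of tiles hTR_308 to hTR_420 stayed positive under every alternative run. The pool median was positive too wherever tiles were the features, at 0.036 to 0.142, and was -0.070 with each barcode as its own feature. The run median was lowest without replicate 2 of the immunoprecipitate, at 0.147 against 0.036 over the pool. With the replicate block the calls were 61 higher and 26 lower, and the block changed no other count by over 1.5 times there. The calls fell to 22 higher, 4 lower and 150 in the pool at a log2 fold change of at least 1, a stricter rule by construction. With each barcode as its own feature 47 of 1918 barcodes of the run were higher and 37 lower, against 239 and 278 of 10641 in the pool. Leaving out 1 library gave 39 to 69 higher, 10 to 32 lower and 278 to 451 in the pool. Over 6 libraries, where TMM and RLE gave 0 calls, the run had 46 higher and 9 lower (290 in the pool) with library size only, 27 and 1 (144) with DESeq2, and 52 and 8 (343) with the replicate block. Without 1 library the 6-library counts ran from 0 to 28 higher, 0 to 23 lower and 0 to 275 in the pool, with 28 higher without replicate 1 of Input and 17 without replicate 1 of the immunoprecipitate. Without replicate 1 of both groups they were 57 and 24 (403), or 61 and 26 (406) with the block. With the block, 3 tiles of the pool were called without replicate 2 of both groups, and 60 higher and 12 lower (367) without replicate 3. The cause was not tested. The median log2 ratio of the pool in replicates 1, 2 and 3 was 0.17, -0.04 and 0.22 with library size only and 0.52, 0.17 and 0.13 with RLE, and that of the run moved by as much. Signs turned in tiles not called: with the immunoprecipitate replicates left out in turn the log2 fold change of hTR_413 ran from -0.0036 to 0.23 and that of hTR_417 from -0.085 to 0.10, and hTR_417 was at -0.018 with RLE and with DESeq2. Of the named tiles, hTR_308 and hTR_419 were among those that lost their calls without either Input replicate, and hTR_312 without replicate 3 of Input. Other tiles of the run, called higher or lower, lost their calls in these fits too, as the counts given above show. Each of these fits leaves a single Input library. Fits without both replicates of a number, without the top barcode, with odd and even barcodes, by remainder and at intervals of 12 and 18 include choices made after the data were seen.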
